A study of Mus musculus with 34 samples.

Results

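Hippocampal RNA-seq samples of the study were divided by their level of Ttr, the transcript of transthyretin. Of 20 hippocampal samples, 8 had a Ttr level of at least 2500 FPKM (read fragments scaled to transcript length and to the size of the library) and are called Ttr-high, and 12 were below it and are called Ttr-low. The samples were chosen by this measured level and not by a label of the study, so a gene that differs between the Ttr groups is one that goes with Ttr among these mice. They belong to a series of 34 samples, 27 of which are RNA-seq samples with a table of FPKM values. The study compared mice lacking HDAC1 in the brain with their controls, with and without the 5XFAD transgenes of Alzheimer's disease.

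Each hippocampal sample came from 1 mouse, and all mice carried the floxed allele Hdac1f/f. Control mice carried no further allele, Hdac1 cKO mice carried Nestin-Cre, 5XFAD mice carried the 5XFAD transgenes, and compound mice carried both Nestin-Cre and 5XFAD. The labels give an age of 13 to 14 months for control and Hdac1 cKO mice and of 13 months for 5XFAD and compound mice, and the methods say that aged mice were male. Nestin-Cre acts in the neural lineage, so HDAC1 is lost from neurons and astrocytes but kept in microglia, and the 5XFAD transgenes are driven by the Thy1 promoter in neurons. The levels of Hdac1 and Thy1 bore out the genotype labels. Hdac1 lay between 5.91 and 10.7 FPKM in control and 5XFAD mice and between 1.15 and 3.03 FPKM in Hdac1 cKO and compound mice, and Thy1 lay between 303 and 388 FPKM without and between 1563 and 2357 FPKM with the transgenes. Relative depth, read from the smallest steps between FPKM values, was 0.956 to 2.20 (median 1.48) in the Ttr-high and 0.760 to 2.37 (median 1.61) in the Ttr-low samples, so the groups overlapped in depth.

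The choroid plexus is a fringe of vascular tissue inside the brain ventricles, and a strip of it lies along the inner edge of the hippocampus. Its single layer of epithelial cells makes cerebrospinal fluid (CSF) by moving ions and water from leaky, fenestrated capillaries into the ventricle, is sealed by tight junctions, and releases proteins into the CSF. Transthyretin, a carrier of thyroid hormone and retinol-binding protein, is the best known of these proteins, and neurons and glia make little of it. The question of the comparison is therefore which transcripts accompany Ttr in a hippocampal sample. In bulk tissue, fewer cells of a type and less RNA per cell cannot be told apart.

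The level of Ttr varied widely between mice of the same genotype. It was 576, 17485, 20146 and 12903 FPKM in control mice 1 to 4, so that 3 control mice were Ttr-high. Among the 5XFAD mice 1 to 6 it was 3058, 7892, 5554, 153, 53.8 and 6617 FPKM, which placed 4 in the Ttr-high group. In compound mice 1 to 5 it was 13910, 160, 148, 265 and 58.9 FPKM, with 1 mouse Ttr-high. The 5 Hdac1 cKO mice, at 106, 72.4, 105, 56.5 and 1608 FPKM, were all Ttr-low. No Ttr-high 5XFAD mouse reached the level of any Ttr-high control mouse. The sample just above the threshold was 5XFAD mouse 1 at 3058 FPKM and the sample just below was Hdac1 cKO mouse 5 at 1608 FPKM. Ttr alone made up 0.422% to 2.35% (median 1.29%) of all summed FPKM in the Ttr-high samples and 0.00694% to 0.209% (median 0.0155%) in the Ttr-low samples. These values set the groups and were not tested.

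**Figure D1:**
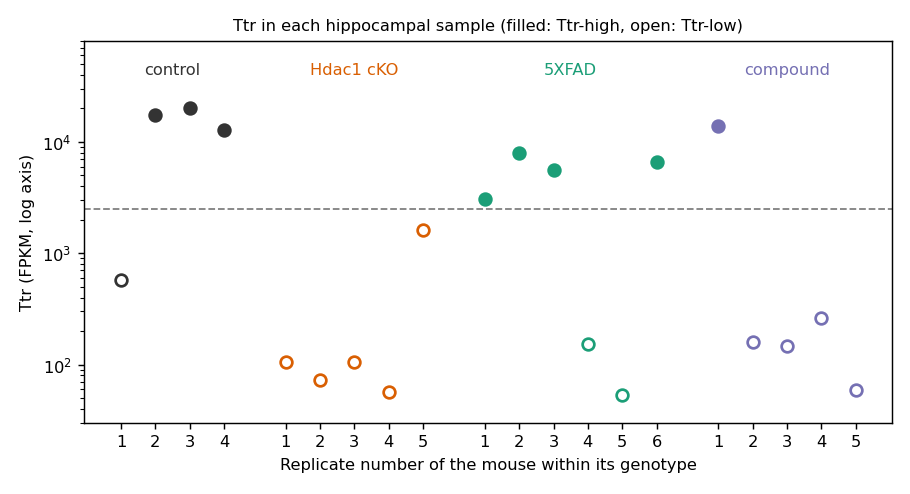
Ttr in FPKM on a log axis for each of the 20 hippocampal mice, by genotype and replicate number. Filled points are Ttr-high, open points Ttr-low and the dashed line is the threshold of 2500 FPKM. Control, 5XFAD and compound mice fall on both sides of the line, whereas all 5 Hdac1 cKO mice lie below it.

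All other genes were then compared between the Ttr groups with genotype as a factor. Because the Hdac1 cKO mice hold no Ttr-high sample, the difference was estimated within control (3 high, 1 low), 5XFAD (4 high, 2 low) and compound mice (1 high, 4 low). Of 14388 genes tested, 106 (0.737%) were higher and 5 (0.0348%) lower in the Ttr-high samples at a Benjamini-Hochberg adjusted p under 0.05 from limma, and 1272 genes (8.84%) had an unadjusted p under 0.05. The median difference over all genes tested was -0.0016 on the log2(FPKM + 1) scale. The rises were large, with 74 of the 106 at 1 or more on this scale and a median of 1.29. Every one of the 106 was on average higher in the Ttr-high mice within control, within 5XFAD and within compound mice. The 106 were picked for a higher level over the same mice, so this is a description and no separate test. The 106 genes, without Ttr, took 0.158% to 0.515% (median 0.286%) of the summed FPKM in Ttr-high and 0.0673% to 0.103% (median 0.0812%) in Ttr-low samples. Leaving out control mouse 1, the only Ttr-low control, lowered the count of higher genes from 106 to 67.

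**Figure D2:**
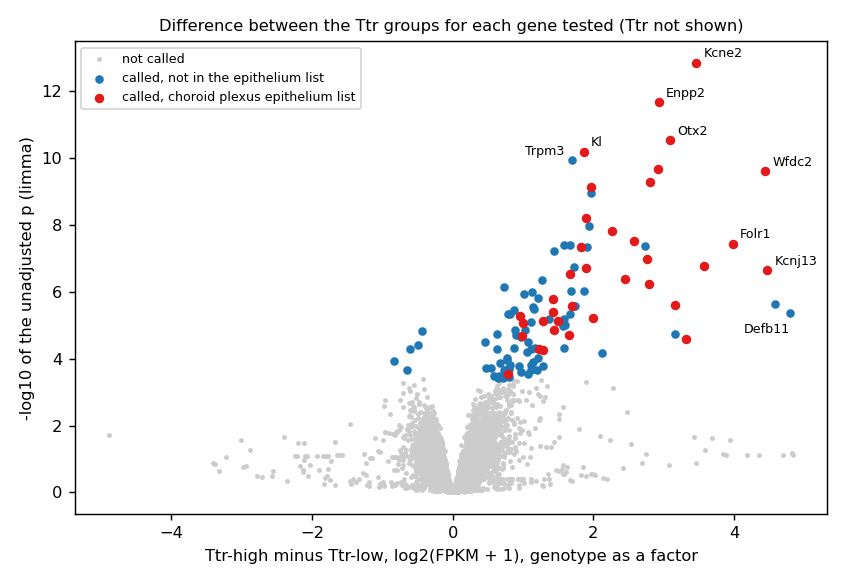
Difference between Ttr-high and Ttr-low samples in log2(FPKM + 1) for each gene tested, against -log10 of the unadjusted p from limma. Ttr is not shown. Red points are genes of the choroid plexus epithelium list that passed the test and blue points are other genes that passed it. Called genes lie almost all on the right, 106 higher against 5 lower.

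Of the 106 genes that rose, 36 were in the list of choroid plexus epithelium markers, 14 in other lists only and 56 in none. Of 41 list members other than Ttr, 38 passed the filter on low values and these 36 rose, where 0.737% of all genes did. The list was drawn up with results of these data known, and 13 of the 38 averaged under 0.5 FPKM in the Ttr-low samples, so that they passed the filter through the Ttr-high group. The counts are therefore a description of the list. The remaining members tested were Cldn3 (difference 0.73, adjusted p = 0.303 from limma) and Spint2 (0.78, adjusted p = 0.119). The median difference of the 38 members was 1.89. Summed over the list without Ttr, the level was 443 to 2701 FPKM (median 1244) in the Ttr-high and 101 to 253 FPKM (median 133) in the Ttr-low samples. In 25 of the 38 members each Ttr-high sample lay above each Ttr-low sample, which was the case for 49 (0.341%) of all genes tested.

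Channels and transporters that take part in CSF formation were among the largest rises. Kcnj13, an inward rectifier potassium channel of the apical membrane (mm9 chr1:89282938-89291304, minus strand), was at 16.8 to 146 FPKM (median 63.1) in Ttr-high and at 0 to 8.08 FPKM (median 0.588) in Ttr-low samples, a difference of 4.47 (SE 0.52, adjusted p = 0.000127 from limma). Its highest Ttr-low value was that of Hdac1 cKO mouse 5, which also had the highest Ttr of that group. Kcne2, an accessory subunit of potassium channels, had 6.05 to 29.0 FPKM (median 12.4) against 0 to 1.23 FPKM (median 0.132). The difference was 3.46 (SE 0.20). Kcne2 averaged under 0.5 FPKM in the Ttr-low samples and passed the filter through the Ttr-high group, so this is a description. Both genes were near 0 in most Ttr-low samples and the groups did not overlap for either. Folr1, the folate receptor through which the choroid plexus delivers folate to the CSF (mm9 chr7:109006845-109019302, minus strand), was at 14.0 to 114 FPKM (median 42.9) against 0.368 to 9.92 FPKM (median 1.11), a difference of 3.98 (SE 0.41, adjusted p = 3.28e-05). The intracellular chloride channel family member Clic6 rose by 2.91, the sodium bicarbonate cotransporter Slc4a5 by 1.90, the sulfate transporter Slc13a4 by 1.70, the cation channel Trpv4 by 1.45 and the water channel Aqp1 by 1.43. Of these, Clic6, Slc4a5, Trpv4 and Aqp1 also averaged under 0.5 FPKM in the Ttr-low samples, so their rises are a description.

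Slc12a2, the sodium-potassium-chloride cotransporter of the apical membrane, was at 16.1 to 25.5 FPKM (median 18.5) in Ttr-high and 8.06 to 14.8 FPKM (median 10.2) in Ttr-low samples, a difference of 0.82 (SE 0.13, adjusted p = 0.00128 from limma) without overlap. Its activating kinase Stk39 rose by 0.46, the smallest rise among the 106 genes, and the sodium pump regulator Fxyd1 by 0.66. The sodium pump subunit Atp1b1 (-0.01) and the carbonic anhydrase Car2 (0.22), which neurons or glia also make, did not pass the test. In all, 18 of the 30 transport genes tested rose, against 0.737% of all genes. Of the 18, 9 are epithelium genes already counted, and 7 averaged under 0.5 FPKM in the Ttr-low samples and so entered the test through the Ttr-high group. The count is a description.

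Several secreted proteins of the epithelium rose, and several that cells across the brain make did not pass the test. Enpp2, which encodes the secreted lysophospholipase D autotaxin (mm9 chr15:54670453-54751701, minus strand), was at 168 to 899 FPKM (median 356) in Ttr-high and 36.8 to 76.3 FPKM (median 42.5) in Ttr-low samples, a difference of 2.93 (SE 0.19, adjusted p = 1.48e-08 from limma). Unlike Kcnj13, it kept a level above 36 FPKM in every Ttr-low sample. The protease inhibitor domain gene Wfdc2 rose by 4.44, 1500015O10Rik, also known as Ecrg4, by 3.57, the bone morphogenetic protein and Wnt antagonist Sostdc1 by 2.58, coagulation factor F5 by 1.97 and the growth factor Igf2 by 1.99. The insulin-like growth factor binding protein Igfbp2 rose by 1.28. Apolipoprotein Apoe (-0.01), clusterin Clu (0.07), cystatin Cst3 (-0.04) and the prostaglandin synthase Ptgds (0.55, adjusted p = 0.454) were among the latter. Of the 19 secreted proteins tested, 8 rose, against 0.737% of all genes. Of the 8, 7 are also in the epithelium list and 1, F5, averaged under 0.5 FPKM in the Ttr-low samples, so this count too is a description.

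Single receptor and enzyme genes of the epithelium list were also higher. Kl, which encodes the anti-ageing protein klotho and is strongly expressed in choroid plexus and kidney (mm9 chr5:151755182-151796384, plus strand), was at 3.84 to 15.6 FPKM (median 8.43) against 1.26 to 2.34 FPKM (median 1.57), a difference of 1.86 (SE 0.15, adjusted p = 2.31e-07 from limma). Its 8 Ttr-high values all exceeded its 12 Ttr-low values, which stayed within a narrow range. The prolactin receptor Prlr rose by 2.80, the retinol dehydrogenase Rdh5 by 2.45 and the angiotensin converting enzyme Ace by 1.23. Among 10 junction genes tested, 5 rose and 5 did not pass, where 0.737% of all genes rose. Of the 10, 4 averaged under 0.5 FPKM in the Ttr-low samples and passed the filter through the Ttr-high group, 1 of them among the 5, and 4 of the 5 are also in the epithelium list. The 5 were the paired keratins of simple epithelia Krt18 (2.76) and Krt8 (median 3.79 against 0.611 FPKM), the pore-forming claudin Cldn2 (1.83), the p53 target Perp (1.65) and the tight junction adaptor Cgnl1 (1.14). Ocln, which encodes the tight junction protein occludin, had 0.34 and Cldn1 had 0.50, neither of which passed the test.

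Otx2, a homeodomain transcription factor needed for choroid plexus development (mm9 chr14:49277354-49287319, minus strand), was at 4.20 to 22.2 FPKM (median 11.9) in Ttr-high and 0 to 1.94 FPKM (median 0.352) in Ttr-low samples. The difference was 3.09 (SE 0.24). Otx2 averaged under 0.5 FPKM in the Ttr-low samples and passed the filter through the Ttr-high group, so this is a description. The transcript Otx2os1, named for its place opposite Otx2 and chosen here after its values were seen, was at 0.762 to 2.69 FPKM in the Ttr-high samples and listed at 0 in all 12 Ttr-low samples. Otx2os1 also passed the filter through the Ttr-high group. The use of strand in the counting is not given in the sources used here, so any reads from a stretch shared by the 2 genes cannot be told apart. The homeobox gene Msx1 rose by 1.29.

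Since OTX2 binds the bicoid-type core TAATCC, promoter windows from 250 bases before to 50 bases after each annotated start were searched for TAATCC and its reverse complement GGATTA on both strands. Of the 36 epithelium genes that rose, 29 had a window in the RefSeq table (GRCm38.p6), and 4 of these (13.8%) held the core, Otx2, Ace, Vat1l and Igf2, against 8.14% of all 27025 genes of the table. The share of windows was 4 of 42 (9.52%) against 7.06%. The cores of Otx2 and Ace are shown in capitals in their windows below, 5′ to 3′ on the strand of the gene, with Kcnj13 as the gene whose level was most like that of Ttr. The Otx2 window is 1 of 4 annotated for the gene, at chr14:48665060-48665359, with the core beginning 211 bases before the start. That of Ace is at chr11:105967698-105967997, with the core beginning 27 bases before the start, and that of Kcnj13, at chr1:87394680-87394979, holds no core. A match is a description of these letters and not a binding site.
Otx2: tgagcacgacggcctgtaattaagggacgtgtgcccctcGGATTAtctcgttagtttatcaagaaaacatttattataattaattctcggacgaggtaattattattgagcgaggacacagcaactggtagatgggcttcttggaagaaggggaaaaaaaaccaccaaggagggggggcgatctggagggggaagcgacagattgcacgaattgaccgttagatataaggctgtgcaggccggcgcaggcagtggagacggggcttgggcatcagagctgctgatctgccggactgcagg
Ace: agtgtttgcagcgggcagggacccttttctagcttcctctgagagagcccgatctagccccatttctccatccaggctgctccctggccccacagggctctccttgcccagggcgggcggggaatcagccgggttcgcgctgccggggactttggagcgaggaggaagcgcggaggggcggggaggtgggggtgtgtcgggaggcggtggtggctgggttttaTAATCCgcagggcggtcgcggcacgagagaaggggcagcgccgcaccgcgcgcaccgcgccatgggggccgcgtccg
Kcnj13: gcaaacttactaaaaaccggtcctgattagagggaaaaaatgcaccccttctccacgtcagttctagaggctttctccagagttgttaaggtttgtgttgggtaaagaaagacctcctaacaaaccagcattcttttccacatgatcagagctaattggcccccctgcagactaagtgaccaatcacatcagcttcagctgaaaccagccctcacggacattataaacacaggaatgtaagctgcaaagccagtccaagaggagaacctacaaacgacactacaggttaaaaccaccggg

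The largest rises among the 56 genes in none of the lists, and among all 106, were those of Defb11, a beta-defensin gene, and Smim22, a small membrane protein gene. Defb11 was at 18.6 to 152 FPKM (median 70.7) in Ttr-high and 0 to 9.49 FPKM (median 0) in Ttr-low samples, a difference of 4.79 (SE 0.69, adjusted p = 0.00128 from limma). Smim22 rose by 4.58 and Frmpd1os by 3.15. The following were chosen from this group after their values were seen. Trpm3, a cation channel of the choroid plexus epithelium that is also the host gene of a microRNA, was at 8.29 to 25.7 FPKM (median 14.9) against 2.71 to 6.17 FPKM (median 4.28), a difference of 1.69. The cell cycle inhibitor Cdkn1c rose by 1.94 and the lipopolysaccharide binding protein Lbp by 1.91, both without overlap. Htr2c, the serotonin receptor abundant in choroid plexus and also present in neurons, was at 3.03 to 9.32 FPKM (median 7.70) against 2.29 to 5.24 FPKM (median 3.36), a difference of 0.89, and its groups overlapped.

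Genes of the motile cilia of ependymal cells, which line the ventricles beside the choroid plexus, were also on the higher side. All 32 members tested had a positive difference, with a median of 0.45, but 2 passed the test, Rsph1 (1.17, adjusted p = 0.00885 from limma) and Lrriq1 (0.75, adjusted p = 0.0314), and 16 had an unadjusted p under 0.05, where 0.737% of all genes rose and 8.84% had such a p. Of the 32, 4 averaged under 0.5 FPKM in the Ttr-low samples and passed the filter through the Ttr-high group, and neither of the called genes is among them. Fitted on log2 Ttr in place of the groups, Lrriq1 passed (adjusted p = 0.0200 from limma) and Rsph1 did not (adjusted p = 0.174). The master regulator of motile cilia Foxj1 was at 1.06 to 2.32 FPKM (median 1.52) against 0.252 to 1.67 FPKM (median 0.424), a difference of 0.55 with an adjusted p of 0.452. The summed level of the list was 291 to 738 FPKM in Ttr-high and 250 to 357 FPKM in Ttr-low samples, so the groups overlapped, with the 3 Ttr-high controls at 549, 648 and 738 FPKM. Hdac1 cKO mouse 5, whose Ttr was the highest of the Ttr-low samples, had the lowest cilia sum of all 20 mice. Because choroid plexus epithelial cells carry cilia too, a gene of this list does not by itself separate the cell types.

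The lists for the other tissue of the plexus held 1 gene that passed the test. Of 15 genes of stroma and meninges tested, 1 rose, Igf2, which is also in the epithelium list, and 3 had an unadjusted p under 0.05. The difference was positive in 14 of the 15, with a median of 0.31, and the summed level was 88.2 to 307 FPKM (median 212) in Ttr-high and 93.8 to 162 FPKM (median 124) in Ttr-low samples. Mgp, a matrix protein of vascular and meningeal cells, had a difference of 0.72 (adjusted p = 0.637 from limma). None of the 3 genes of fenestrated endothelium, 13 of barrier endothelium and 5 of border macrophages passed the test, with 0, 0 and 1 at an unadjusted p under 0.05. With 0.737% of all genes higher and 8.84% at an unadjusted p under 0.05, lists of this size would hold few calls or none at the share of all genes, so nothing is read from these counts. Plvap, the diaphragm protein of fenestrated capillaries, had a median of 6.74 FPKM in Ttr-high and 6.56 FPKM in Ttr-low samples, and its levels were interleaved. None of the 3 red blood cell genes passed either, 1 of them at an unadjusted p under 0.05.

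Markers of hippocampal neurons and glia had list medians close to 0. The median difference was 0.04 over 14 markers of hippocampal neurons, such as Prox1 of the granule cells, -0.03 over 10 astrocyte genes, -0.11 over 10 microglial genes and 0.10 over 9 oligodendrocyte genes, with 1, 0, 1 and 1 members at an unadjusted p under 0.05, against 8.84% of all genes. None passed the adjusted threshold, which at 0.737% of all genes is near the background for lists of this size. The summed level of the neuronal markers was 427 to 592 FPKM in Ttr-high and 437 to 654 FPKM in Ttr-low samples. Genes of the thalamus, which borders the dissected region, were all positive (14 of 14 tested, median 0.33), with none past the adjusted threshold and 3 at an unadjusted p under 0.05. Their sum was highest in 2 Ttr-high samples, control mouse 4 (174 FPKM) and 5XFAD mouse 6 (169 FPKM), against 54.7 to 101 FPKM in the other 18. Without those mice, 96 genes were higher in Ttr-high samples, 92 of them among the 106, and 35 epithelium genes rose.

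**Figure D3:**
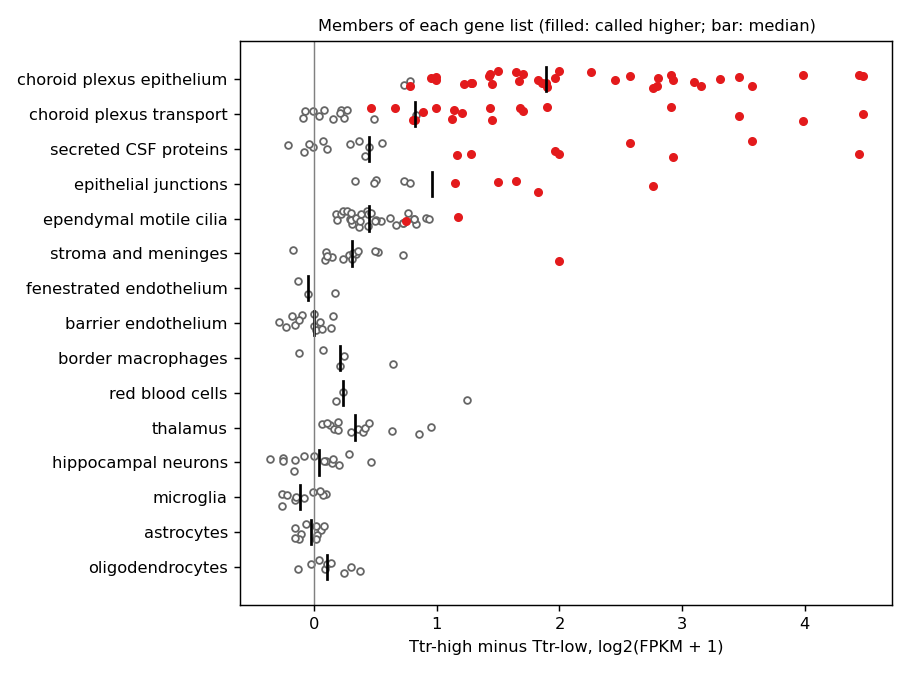
Difference between Ttr-high and Ttr-low samples in log2(FPKM + 1) for each tested member of the gene lists, 1 point per gene. Filled points passed the test and bars are list medians, which run from 1.89 for the choroid plexus epithelium to -0.11 for microglia.

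The genes most like Ttr were picked by their correlation with it. With genotype means removed, Pearson's r with Ttr over the 20 samples was highest for Kcnj13 (0.984), Folr1 (0.966), Otx2 (0.957), Defb11 (0.950) and 1500015O10Rik (0.950), followed by Clic6, Enpp2, Slc4a5, Rdh5 and Kcne2 (0.936). Within the 8 Ttr-high samples alone, without removal of genotype means, r of these 10 genes was between 0.924 (Folr1) and 0.992 (1500015O10Rik), and within the 12 Ttr-low samples between 0.711 (Rdh5) and 0.900 (Kcnj13). These are descriptions, since the same Ttr values set the groups and chose the genes, and all points share libraries and depth with it. Below the threshold, Hdac1 cKO mouse 5 (Ttr 1608 FPKM) and control mouse 1 (Ttr 576 FPKM) had the most Folr1, 9.92 and 5.00 FPKM, and the most Kcnj13, 8.08 and 5.35 FPKM. Fitted on log2 Ttr in place of the groups, 90 genes went up with Ttr at an adjusted p under 0.05 from limma, 82 of them among the 106 and 33 of them in the epithelium list. Genes named above that were not called in this fit include Rsph1, Fxyd1, Perp and Vat1l (adjusted p = 0.174, 0.274, 0.0572 and 0.0748).

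**Figure D4:**
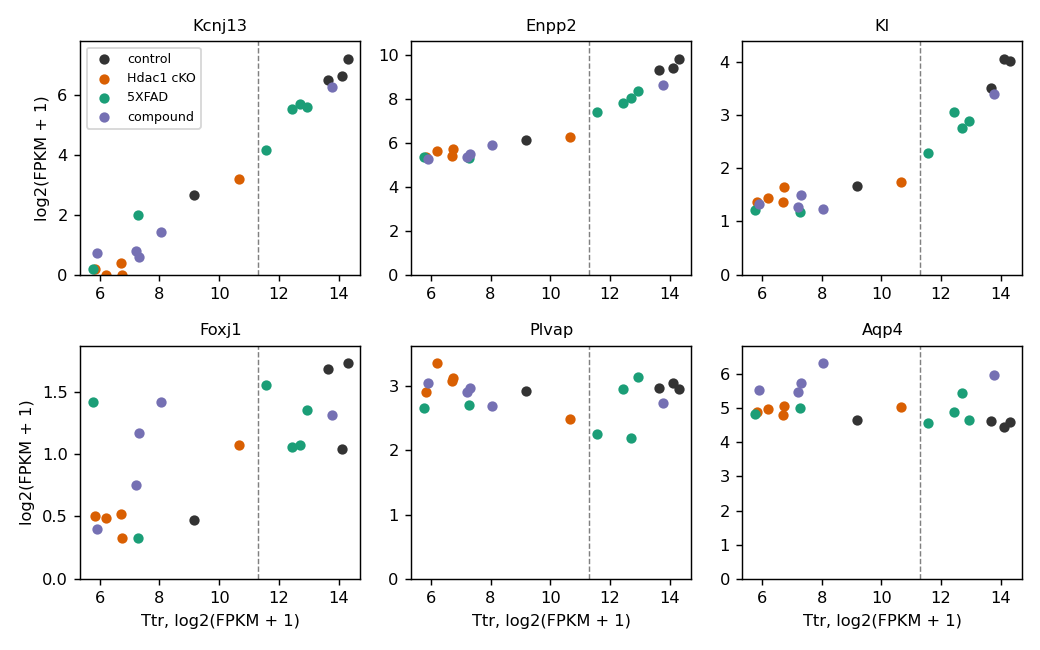
Level of 6 genes against Ttr, both in log2(FPKM + 1), 1 point per mouse and coloured by genotype. The dashed line is the threshold. Kcnj13, Enpp2 and Kl are higher in the Ttr-high mice of control, 5XFAD and compound genotype, Foxj1 scatters more, and Plvap of fenestrated endothelium and Aqp4 of astrocytes run flat.

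The difference was also read within each genotype that holds both Ttr groups. Kcnj13 was higher in Ttr-high mice by 4.09 in control, 4.15 in 5XFAD and 5.37 in compound mice, and Enpp2 by 3.38, 2.56 and 3.11. In a fit with an interaction of Ttr group and genotype, the Ttr difference of none of the 106 genes differed between genotypes at an adjusted p under 0.05 from limma, but only 10 of all 14390 genes (0.0695%) passed there, so that 0 of 106 is near the background. At an unadjusted p under 0.05 the share was above it, 13 of the 106 (12.3%) against 803 (5.58%) of all genes. For Rsph1 the difference was 2.36 in control, 0.44 in 5XFAD and 1.27 in compound mice (adjusted p of the interaction 0.216). The test rests on 1 Ttr-low control and 1 Ttr-high compound mouse.

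The 5 genes that were lower in Ttr-high samples were Maf1 (-0.43), a repressor of RNA polymerase III, the RNA helicase gene Ddx56 (-0.49), Prkab2 (-0.60), a subunit of AMP-activated protein kinase, 2410016O06Rik (-0.64) and Il4i1 (-0.84), an amino acid oxidase. Maf1 was at 30.8 to 40.8 FPKM (median 38.6) in Ttr-high and 39.2 to 55.5 FPKM (median 45.7) in Ttr-low samples, with overlapping groups. The count of 5 became 2 without compound mouse 1 and 9 without 5XFAD mouse 2. With log2 Ttr in place of the groups the count was also 5. 2410016O06Rik (adjusted p = 0.375 from limma) and Ddx56 (adjusted p = 0.209) were then not among them.

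Because Ttr-high samples were spread unevenly over the genotypes, the comparisons of each genotype with control were fitted without a Ttr term, with the Ttr group as a term, and with log2 Ttr as a term. The 3 comparisons share the 4 control mice. A gene was counted as downregulated when it was lower by at least 1.5 times with p under 0.05 before adjustment. These cutoffs follow the published methods, but here the fold change is that of FPKM + 1 and the p comes from limma. The counts are therefore not on the study's own measure, and changes of low genes are understated. For Hdac1 cKO mice, 382 of 14388 genes (2.65%) were lower without a Ttr term, 202 (1.4%) with the Ttr group and 174 (1.21%) with log2 Ttr. In these fits 1405, 742 and 626 genes had an unadjusted p under 0.05 in either direction. An added term can widen the standard error, so such counts can fall with precision as well as with the size of the differences. Among the 38 epithelium genes the count was 37, then 15, then 6. These counts are a description and no test of the list, since its members were chosen with these data known, nearly all of them go with Ttr, which is the added term, and 13 passed the filter through the Ttr-high group, which holds 3 of the 4 controls. For compound mice, 317 (2.2%), 225 (1.56%) and 206 (1.43%) of all genes and 35, 17 and 6 of the epithelium genes were lower. In 5XFAD mice the counts went up with the Ttr group and down with log2 Ttr. Without a Ttr term 186 genes (1.29%) were lower, 8 of them in the epithelium list. With the group they were 220 (1.53%) and 33, and with log2 Ttr 143 (0.994%) and 4. Ttr-high 5XFAD mice had 3058 to 7892 FPKM of Ttr and Ttr-high controls 12903 to 20146 FPKM, so the group term leaves a difference in Ttr level between them. With the Ttr group, leaving out control mouse 1 moved the count of all lower genes to 343 in Hdac1 cKO and 346 in compound mice and that of epithelium genes to 29 in compound mice. Without control mouse 3 the epithelium count was 10 in compound and 18 in 5XFAD mice, and without 5XFAD mouse 1 it was 21 in 5XFAD mice. Ttr is itself a measured transcript, so an effect of genotype on the epithelium and a difference in the tissue sampled cannot be told apart in these fits.

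At an adjusted p under 0.05 from limma and with the Ttr group as a term, no gene (0%) was lower in Hdac1 cKO mice. An unadjusted p under 0.05 was found there for 742 of 14388 genes in either direction, and for 626 with log2 Ttr as the term. Chance alone gives about that share at this threshold, so these numbers are not read as a signal. With the Ttr group, limma without trend and robust moderation also called none. In the same fit 29 genes (0.202%) were lower in 5XFAD mice, 8 of them in the epithelium list, and 16 (0.111%) in compound mice, none of them in that list. Without a Ttr term 6 genes were lower in 5XFAD mice and with log2 Ttr 5, and in compound mice 34 and 8 were, none of them in the list. The 8 became 5 without control mouse 2, 3 or 4 or 5XFAD mouse 1. The count of 29 became 9 without control mouse 3, 14 without control mouse 4, 15 without 5XFAD mouse 1 and 55 without 5XFAD mouse 3. That of 16 became 7 without control mouse 1, control mouse 4 or compound mouse 1 and 9 without compound mouse 2. Without the 2 thalamus-high samples the 29, 8 and 16 became 14, 4 and 5. They became 18, 6 and 9 with a replicate block and 17, 4 and 15 with a pseudocount of 0.1. Hdac1 itself was lower in Hdac1 cKO mice with a difference of -1.23 without a Ttr term (adjusted p = 0.00636 from limma), -1.14 with the Ttr group (adjusted p = 0.300) and -1.20 with log2 Ttr, with a standard error of 0.17 in the first fit and 0.21 in the second.

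Genes that the study displayed for ion transport, ageing, protein kinase C, chaperones and antioxidant defence were also examined as a list. They were picked there on these samples, so their direction in these samples is not independent evidence. The paper also reports reduced expression of downregulated genes from this display in cultured neurons, after Hdac1 knockdown or mild oxidative stress. It further reports more oxidized guanine at the promoters of Prkcd, Gpx3, Slc4a5 and Slc18a2 in aged Hdac1 cKO mice. That evidence was not examined here. The list here held 16 genes. All 16 had a positive difference in Ttr-high samples, with a median of 0.48, and 4 passed the test, where 0.737% of all genes rose, namely Slc4a5, Slc13a4 and Kl, which are epithelium genes, and Gpx8 (1.73, adjusted p = 0.000879 from limma), a glutathione peroxidase of the endoplasmic reticulum. Slc4a5 averaged under 0.5 FPKM in the Ttr-low samples and passed the filter through the Ttr-high group. Gpx8 was at 6.27 to 40.0 FPKM (median 20.7) in Ttr-high and 1.72 to 10.1 FPKM (median 6.76) in Ttr-low samples. Without a Ttr term, 11 of the 16 were lower in Hdac1 cKO than in control mice by the study's thresholds, and with the Ttr group or with log2 Ttr 1 was, Hspb1, a small heat shock protein gene. An added term can also widen the standard error of this comparison, as it did for Hdac1. A count that requires a small p can fall for that reason as well as through smaller differences. In 5XFAD mice the count of the 16 went from 4 without a Ttr term to 6 with the Ttr group and 1 with log2 Ttr, and in compound mice from 5 to 2 and 0. Over all genes the shares lower in these fits were 2.65%, 1.4% and 1.21% in Hdac1 cKO, 1.29%, 1.53% and 0.994% in 5XFAD and 2.2%, 1.56% and 1.43% in compound mice. The difference between Hdac1 cKO and control mice went from -1.81 to -0.41 for Kl, from -1.95 to -0.65 for Gpx8 and from -0.59 to -0.24 for the chaperone gene Hspa5 when the Ttr group was added. Since no Hdac1 cKO mouse was Ttr-high, the Ttr difference taken off here is that of the other genotypes. For Hspb1 it went from -1.04 to -0.69 and for the extracellular peroxidase gene Gpx3 from -0.81 to -0.50.

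**Figure D5:**
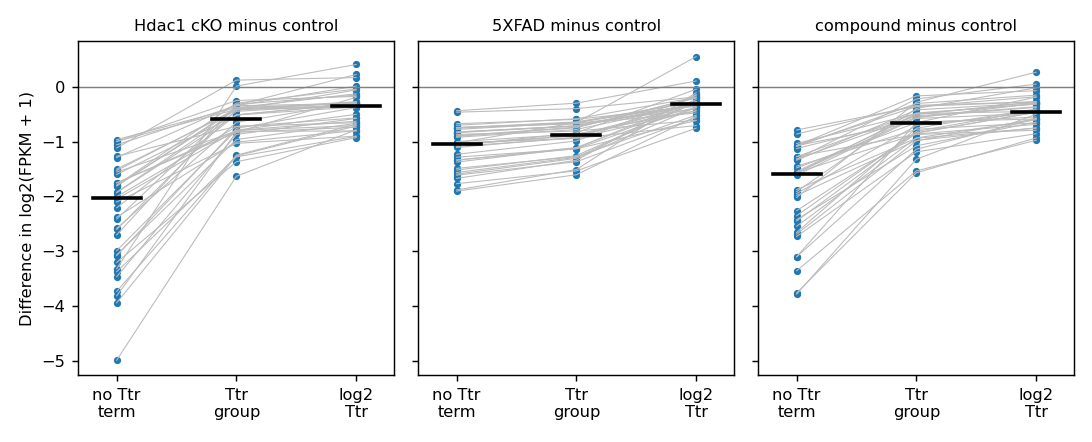
Difference from control in log2(FPKM + 1) of the 38 epithelium genes in Hdac1 cKO, 5XFAD and compound mice, fitted without a Ttr term, with the Ttr group and with log2 Ttr. Grey lines join a gene and black bars are medians, which move from -2.03 to -0.36 in Hdac1 cKO, from -1.04 to -0.31 in 5XFAD and from -1.59 to -0.46 in compound mice between the first and the last fit.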

How the data were processed

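Tables of FPKM values for 20 hippocampal samples, 1 mouse each, were used, with 7 samples of GFAP+ cortical nuclei for reference. For the hippocampus the authors made 3′ digital gene expression libraries, aligned reads with Tophat2 and computed the deposited FPKM values with Cufflinks 2.0.0 on the mm9 annotation. The nuclei were prepared with a SMART-Seq low input kit. Division by length in a 3′ library scales a gene alike in all samples. Fragment numbers are not in the tables, so depth is known only in relative terms and no counting interval was computed.

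Members and lists were chosen with earlier results of these data known. Values were transformed to log2(FPKM + 1), which understates changes of low genes. Genes averaging 0.5 FPKM or more were fitted with limma 3.58.1 (R 4.3.3, trend and robust moderation, two-sided) on genotype and Ttr group over all 20 samples, 15 residual degrees of freedom, with Benjamini-Hochberg adjustment over all genes tested. Ttr was left out of tests and counts. Named genes were Ttr, Hdac1, Thy1, the list members and the 10 genes most correlated with Ttr. Also named were the 15 largest rises among called genes and all 5 called falls. Other names are marked in the text as chosen after their values were seen. Tf and Hbb-b2 of the lists had no row, and some list members are not reported here by name. On simulated data for Ttr-high against Ttr-low (14389 genes, 200 changed by 1.5 on the log2 scale), 197 were recovered (98.5%) with 14 false calls. The changed genes were drawn only from genes of higher mean level, and the noise was normal. The share recovered therefore does not describe genes near 0 FPKM in the Ttr-low samples or smaller changes. Gene positions came from the GENCODE annotation of NCBIM37 (mm9), promoters from RefSeq.

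Alternatives were quantile normalization, median scaling, a pseudocount of 0.1, the filter dropped or raised to 1 FPKM, limma without trend and robust moderation, a replicate block, a split at 1000 or 5000 FPKM, log2 Ttr as a number, no genotype factor or no Ttr term, a fold change of 1.5 with unadjusted p in place of the adjusted p, each genotype or mouse left out, and, added after seeing the data, both thalamus-high samples left out. The other listed samples were not analysed here.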

Additional observations from a re-analysis of the deposited data

Results flagged for a closer look

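Selected genes other than Ttr and list sums were examined in each genotype, 84 groups of 4 to 6 samples. In 12 groups the highest or lowest sample stood apart from the rest of its genotype by Dixon's criterion. Chance gives about 1 in 20, but the groups are not independent. Of the 12, 8 belong to compound mouse 1 and Hdac1 cKO mouse 5, the mice with the most Ttr in their genotypes, in genes and sums of which most go with Ttr, so these values describe the same mice again and the total is not read against that rate. Compound mouse 1 stood above the other compound mice in Kcnj13 (75.2 FPKM), Kl (9.56 FPKM), and the summed FPKM of the lists for choroid plexus epithelium (1336), choroid plexus transport (1660), epithelial junctions (53) and stroma and meninges (216). Hdac1 cKO mouse 5 stood above the other Hdac1 cKO mice in Kcnj13 (8.08 FPKM) and the epithelium sum (253 FPKM). The thalamic transcription factor gene Tcf7l2 was set apart in control mouse 4 (16.2 FPKM) and 5XFAD mouse 6 (20.3 FPKM), and the latter also in the thalamus sum (169 FPKM). Compound mouse 4 was highest of its genotype in the oligodendrocyte sum (2191 FPKM).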

How the results depend on the processing

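Across all alternatives, 7720 values of 222 named genes were refitted, of which 7523 kept their side of the threshold, 162 lost the call and 35 gained it. A change of direction was counted only for a gene called in the main or the alternative fit, and there were 0. Genes called in neither fit could change direction and still count among the 7523. The count of epithelium genes that rose was 26 without the control group and 30 to 38 otherwise. With p taken before adjustment and a minimum fold change of 1.5, which alters 2 choices together, the 106 higher genes became 270, the 5 lower genes 49, and the calls in the genotype comparisons (0 for Hdac1 cKO, 138 for 5XFAD and 142 for compound mice) 294, 468 and 589. The 106 higher genes became 177 without a genotype factor and 56 without the control group, and 67 to 122 with each mouse left out. The 5 lower genes became 11 without a genotype factor, 2 without the compound group, and 1 each with the split at 1000 FPKM, without the 5XFAD group and with a replicate block, and 2 to 9 with each mouse left out. Calls in the 3 genotype comparisons were 0, 83 to 174 and 72 to 165 with each mouse left out. The fewest compound calls, 72, came without control mouse 1 and 82 came without compound mouse 1. The 5XFAD calls were 83 with log2 Ttr and 83 without the thalamus-high samples, and Hdac1 cKO had 1 call without a Ttr term. The cause of these shifts was not tested. Same-numbered mice of different genotypes did not deviate together (r from -0.113 to 0.0938 over 27 pairs), so the numbers were not taken as pairs. With the replicate block, 91 genes were higher, 84 of them among the 106, and 35 epithelium genes rose. A fit within Ttr-low samples alone was not run, since control has 1 such sample. Depth is known in relative terms only, so a gene listed at 0 is not shown to be absent.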

Other observations

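GFAP+ nuclei sorted from the cortex gave the level of the same genes outside the hippocampal dissection. Ttr was 10.7, 6.40 and 131 FPKM in nuclei of 3 control mice and 162, 95.9, 246 and 200 FPKM in nuclei of 4 Hdac1 cKO mice, against a median of 127 FPKM in the Ttr-low hippocampal samples. Their epithelium sum without Ttr was 207 to 339 FPKM, which overlaps the 101 to 253 FPKM of the Ttr-low hippocampus. Single members differed in how they reached it. Otx2 was at 1.63 to 7.41 FPKM in the nuclei, Slc13a4 at 2.95 to 7.67 FPKM and Clic6 at 1.09 to 4.55 FPKM, all higher than the Ttr-low medians of 0.352, 1.03 and 0.347 FPKM, whereas Folr1 stayed at 0 to 1.85 FPKM and Cox8b at 0 to 2.85 FPKM. The nuclei were made into libraries with a SMART-Seq kit for low input and the hippocampus into 3′ libraries, so FPKM of the sample types are not on the same footing and were not tested against each other.

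Pifo, 1 of the 56 higher genes in no list and picked after its values were seen, was at 7.24 to 26.6 FPKM (median 14.8) in Ttr-high and 0 to 5.15 FPKM (median 3.00) in Ttr-low samples, without overlap and with a difference of 2.12.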
